A study of Mus musculus with 2 samples.

Results

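Long noncoding RNA start sites in open chromatin were described in the left cerebral cortex of aged mice, from 2 libraries of DNase-seq. DNase I cuts DNA in isolated nuclei where chromatin is open, and stretches that collect many cuts are called as peaks. A peak was counted here when it lay within 1 kb of a transcription start site (TSS) of a GENCODE gene of type lincRNA or antisense and over 1 kb from every TSS of a protein-coding gene, on chromosomes 1 to 19. A lincRNA lies between protein-coding genes, and an antisense RNA is transcribed across such a gene on the opposite strand. By this rule 1481 of 71313 peaks were start-site peaks in replicate 1 and 2073 of 108103 in replicate 2, or 1777 ± 419 per library (SD, n = 2). Another 1713 and 1733 peaks lay near a lncRNA TSS and a protein-coding TSS at the same time and were left out by the rule.

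Both libraries came from male adult animals of strain B6CASTF1/J, an F1 hybrid of C57BL/6 and CAST, aged 18 to 20 months. They are 1 group with no second condition, so no test between conditions could be made. The labels name them biological replicates and give separate tissue samples but 1 donor entry, so the spread between them may be technical. The reads carry 2 parental genomes and the coordinates are those of a C57BL/6J reference, and values by allele were not analysed here. Cortical tissue mixes neurons, glia and vessel cells, and a peak in few cells cannot be told apart from a weakly open peak in many. A peak was present within 1 kb of a start of all 5 marker genes of cortical excitatory neurons (such as Neurod6, Tbr1 and Slc17a7) in both libraries. Among 24 marker genes of brain cell types 16 and 15 had one, with Gad2, Gfap, Sox10, Cx3cr1, Csf1r, Cldn5 and Pecam1 at none in either library. That share is close to the 61.8% and 62.4% of all protein-coding genes. Among 9 marker genes of liver, heart and muscle, pancreas and gut 1 and 2 had one.

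Long noncoding RNAs are transcripts that code for no known protein. Their start sites, like those of protein-coding genes, can be cut readily by DNase I where transcription factors and RNA polymerase displace nucleosomes, and many act through the place or the act of their transcription as well as through the RNA. In brain, host transcripts of neuronal microRNAs, imprinted RNAs such as Meg3 and abundant nuclear RNAs such as Malat1 are well known examples. RNA was not measured in these libraries, so an open start site is a statement on chromatin and not on the level of a transcript.

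Start-site peaks of 10 loci are printed here because they carry the results that follow: the 3 strongest loci, those of known lncRNAs, and peaks with a match to a sequence motif. Each is the peak of replicate 1 on the plus strand of GRCm38.p6 (mm10), 5′ to 3′, in lower case, with every match to a searched motif in capitals. The motifs searched are spelled out further on, except the CTCF core, a pattern that allows several letters at some places. Gm42418 (chr17:39846781-39846900) and Gm15564 (chr16:35981661-35981820) had the strongest peaks and no more than 1 match, and Gm44686 (chr7:73537761-73538020) followed with the CRE palindrome, SP/KLF boxes and CCAAT.
Gm42418: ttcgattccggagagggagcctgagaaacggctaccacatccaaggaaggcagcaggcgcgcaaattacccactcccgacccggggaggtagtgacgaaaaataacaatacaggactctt
Gm15564: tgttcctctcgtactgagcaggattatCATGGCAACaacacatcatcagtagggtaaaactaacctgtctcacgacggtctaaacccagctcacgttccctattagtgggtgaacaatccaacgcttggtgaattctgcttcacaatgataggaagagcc
Gm44686: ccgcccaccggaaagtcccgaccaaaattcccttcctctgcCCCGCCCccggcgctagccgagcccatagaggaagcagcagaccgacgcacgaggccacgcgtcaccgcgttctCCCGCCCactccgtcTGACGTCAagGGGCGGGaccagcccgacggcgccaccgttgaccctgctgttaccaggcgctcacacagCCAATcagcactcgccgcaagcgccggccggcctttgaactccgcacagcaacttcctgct
The start-site peaks of Malat1 (chr19:5803521-5803780), 1700020I14Rik (chr2:119594181-119594320) and Mir124a-1hg (chr14:64587701-64587980) are of genes from the lists of widely expressed, neural and microRNA host genes. They hold SP/KLF boxes, CCAAT and an E-box in capitals in that order. The printed Malat1 peak lies 849 bp from the nearest Malat1 start.
Malat1: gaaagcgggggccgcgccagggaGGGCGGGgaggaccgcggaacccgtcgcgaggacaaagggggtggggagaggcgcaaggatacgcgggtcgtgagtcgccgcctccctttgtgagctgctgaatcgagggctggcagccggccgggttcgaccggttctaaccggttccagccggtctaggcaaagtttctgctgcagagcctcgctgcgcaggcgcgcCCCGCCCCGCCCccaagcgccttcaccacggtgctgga
1700020I14Rik: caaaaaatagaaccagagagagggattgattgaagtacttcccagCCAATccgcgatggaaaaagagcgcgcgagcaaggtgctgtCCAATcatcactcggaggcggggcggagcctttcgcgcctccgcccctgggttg
Mir124a-1hg: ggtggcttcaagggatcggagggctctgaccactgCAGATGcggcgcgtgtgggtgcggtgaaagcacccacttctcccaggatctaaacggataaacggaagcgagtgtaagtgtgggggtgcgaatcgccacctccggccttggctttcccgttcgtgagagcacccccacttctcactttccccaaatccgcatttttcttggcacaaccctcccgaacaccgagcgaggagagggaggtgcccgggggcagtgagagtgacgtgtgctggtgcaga
Meg3 (chr12:109540761-109540980) and Kcnq1ot1 (chr7:143296501-143296780) are imprinted, and their peaks hold CRE and CCAAT (Meg3) and CCAAT with an E-box (Kcnq1ot1).
Meg3: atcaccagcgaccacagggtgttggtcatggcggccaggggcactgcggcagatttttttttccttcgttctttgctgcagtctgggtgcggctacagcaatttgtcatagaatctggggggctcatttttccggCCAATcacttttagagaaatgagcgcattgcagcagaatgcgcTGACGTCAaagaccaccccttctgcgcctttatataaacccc
Kcnq1ot1: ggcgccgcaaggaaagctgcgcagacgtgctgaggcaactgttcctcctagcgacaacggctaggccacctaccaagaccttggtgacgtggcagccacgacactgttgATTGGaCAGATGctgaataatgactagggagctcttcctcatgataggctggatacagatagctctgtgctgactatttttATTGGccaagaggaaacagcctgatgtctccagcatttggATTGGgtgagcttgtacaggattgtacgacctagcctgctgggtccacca
Mir17hg (chr14:115042141-115042360) and Snhg7os (chr2:26640241-26640380) hold a match to the CTCF core. Among start-site peaks this motif was more common in those found in both libraries than in those found in 1.
Mir17hg: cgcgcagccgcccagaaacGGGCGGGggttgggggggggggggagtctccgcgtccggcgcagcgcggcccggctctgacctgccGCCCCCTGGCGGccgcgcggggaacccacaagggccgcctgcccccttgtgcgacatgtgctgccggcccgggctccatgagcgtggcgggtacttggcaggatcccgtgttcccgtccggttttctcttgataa
Snhg7os: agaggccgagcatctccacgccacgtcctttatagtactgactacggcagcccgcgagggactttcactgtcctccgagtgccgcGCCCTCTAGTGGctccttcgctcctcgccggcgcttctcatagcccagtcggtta

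Most annotated lncRNA genes had no start-site peak in this tissue. Of 8122 lincRNA and antisense genes on these chromosomes, 7024 had at least 1 TSS over 1 kb from every protein-coding TSS and so could hold one. In replicate 1 a start-site peak was present at 1131 of these genes (16.1%) and in replicate 2 at 1513 (21.5%), or 18.8% ± 3.85 (SD, n = 2). The same 1064 genes had one in both libraries, 67 in replicate 1 alone, 449 in replicate 2 alone and 5444 in neither. The share was near equal for the 4881 lincRNA genes (15.8% and 21.2%) and the 2143 antisense genes (16.7% and 22.3%). Protein-coding genes had a promoter peak far more often, at 61.8% and 62.4% of 20807 genes. The 2 rules are unlike, since peaks near both kinds of TSS were kept as promoter peaks and left out as lncRNA start-site peaks. A gene could hold several peaks, also within the window of 1 start: 267 and 397 of the nearest genes had more than 1. The most in replicate 1 were 5 peaks at 2410080I02Rik, a lincRNA near Klf9 with 1 start. In replicate 2 they were 8 peaks each at A330102I10Rik and Gm3764, with 3 and 5 starts.

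Start-site peaks gathered just upstream of the annotated start. The 100 bp bin that ends at the TSS held 256 shared peaks in replicate 1 and 255 in replicate 2, and 23 and 104 of the peaks found in 1 library, counted by the peak's centre. The next bin downstream held 109 and 108 shared peaks. Centres lay upstream of the TSS for 55.5% of start-site peaks in replicate 1 and 53.9% in replicate 2. The peak itself covered the TSS in 406 (27.4%) and 570 (27.5%). The rest lay beside it, which the window of the rule allows.

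**Figure D1:**
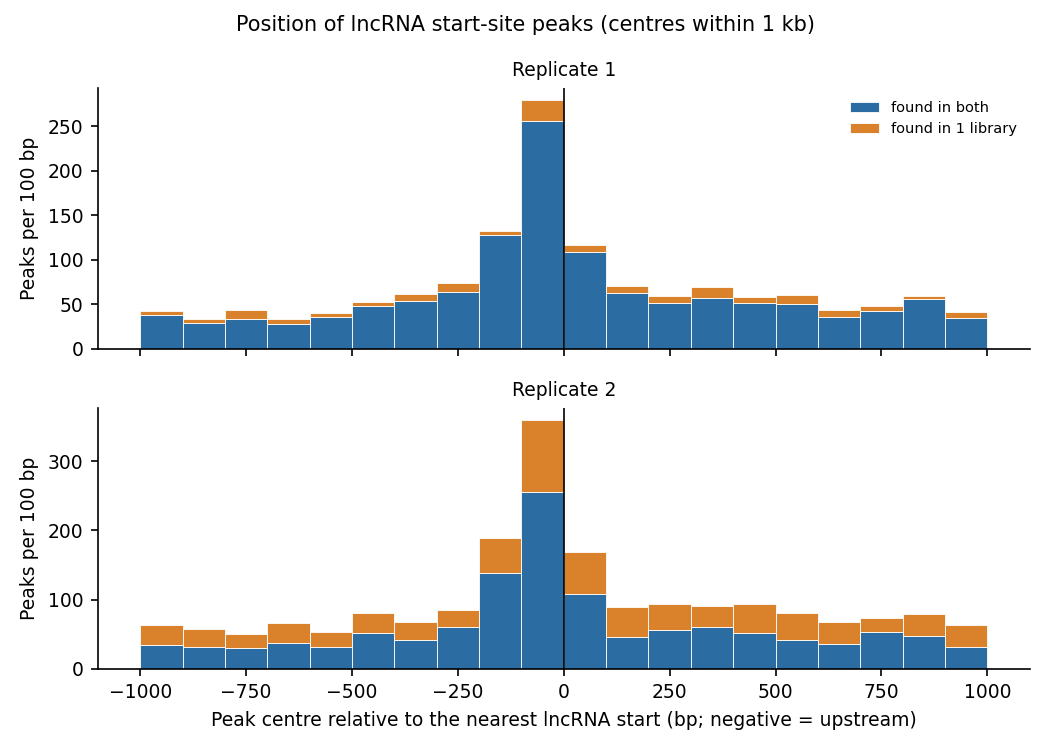
Centres of lncRNA start-site peaks relative to the nearest lncRNA start (x axis, bp, negative is upstream) as peaks per 100 bp bin (y axis), for replicate 1 (top) and replicate 2 (bottom). Blue bars are peaks found in both libraries and orange bars, stacked on top, peaks found in 1 library. The tallest bin in both panels is the one that ends at the start, with 256 and 255 shared peaks.

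Peaks that covered the TSS were stronger and more often shared than those beside it. Their median signal was 1.58 in replicate 1 and 1.33 in replicate 2, against 1.19 and 0.921 for peaks beside the TSS. Of peaks over the TSS, 93.6% and 74.9% were found in both libraries, against 87.3% and 58.4% of those beside it. A footprint, a short stretch inside a peak that a bound protein shields from cutting, was present in 93.3% of peaks over the TSS in both libraries and in 87.9% and 81.6% of those beside it. Among peaks over the TSS, the CpG-rich ones (observed over expected CpG of at least 0.6 and GC of at least 50%) had medians of 2.18 and 2.02, against 1.29 and 1.16 for the others. Since signal, position and CpG content moved together, their separate parts were not tested.

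In sequence, lncRNA start-site peaks lay between protein-coding promoters and distal peaks, which are over 1 kb from every annotated TSS. Their median CpG observed over expected was 0.435 in replicate 1 and 0.380 in replicate 2 (0.408 ± 0.0384, SD, n = 2). It was 0.792 and 0.733 at the 21745 and 22282 protein-coding promoter peaks, and 0.266 and 0.244 at the 46778 and 81903 distal peaks. CpG-rich peaks made up 28.0% and 19.8% of lncRNA start-site peaks, 74.2% and 64.0% of promoter peaks and 8.18% and 4.43% of distal peaks. Median GC was 55.5% and 52.5% at lncRNA start sites, 65.0% and 62.0% at promoters and 51.9% and 48.6% at distal peaks. Their median signal, 1.29 and 1.00, lay nearer to the distal peaks (1.12 and 0.834) than to the promoters (1.91 and 1.42). The order of the 3 sets was the same in both libraries for CpG content, GC and signal.

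**Figure D2:**
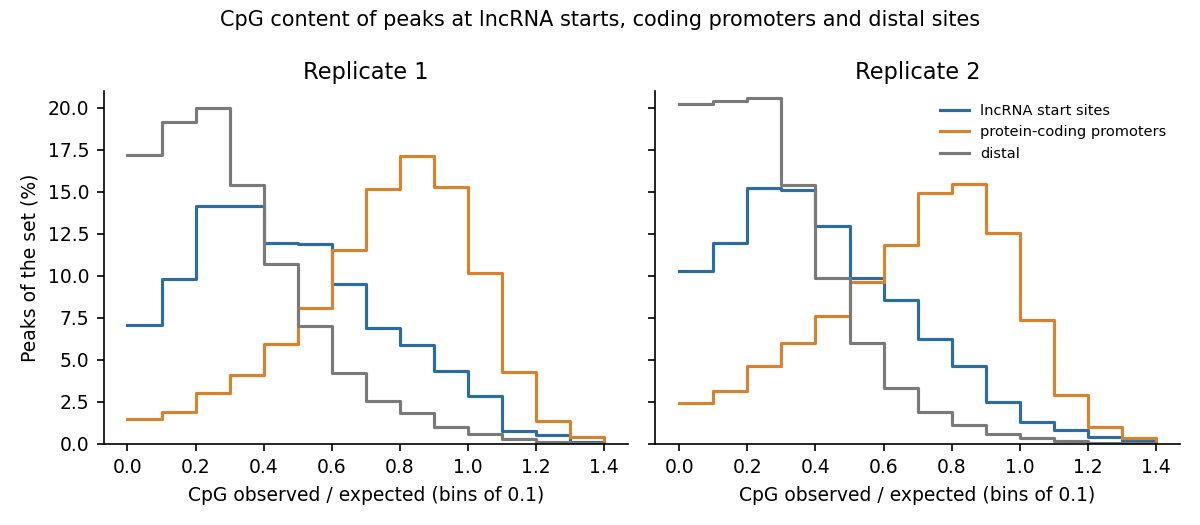
Share of peaks in each set (y axis, percent) by CpG observed over expected in bins of 0.1 (x axis), for replicate 1 (left) and replicate 2 (right). Lines show lncRNA start-site peaks (blue), protein-coding promoter peaks (orange) and distal peaks (grey), with ratios of 1.4 and above not drawn. The lncRNA line peaks below 0.4 with a long shoulder to the right, between the other sets, with medians of 0.435 and 0.380.

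The CpG content of the DNA around a lncRNA TSS went with having a peak at all. When the eligible start sites were split into deciles of CpG observed over expected within 500 bp, 4.52% of the 797 with the least CpG had a start-site peak in replicate 1 and 8.28% in replicate 2. In the decile with the most CpG, 48.7% and 52.4% of 798 had one. The share rose at every step in replicate 1 and at every step but that from the fourth to the fifth decile in replicate 2. This compares start sites within a library, and near starts of 1 gene share their DNA.

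Locations were similar in both libraries. By the nearest lncRNA TSS, 1013 and 1398 belonged to lincRNA genes and 468 and 675 to antisense genes. Their centres lay inside a protein-coding gene body in 28.1% and 29.6%, and inside an exon of such a gene in 84 and 105 peaks. The nearest protein-coding TSS was 1 to 5 kb away for 260 and 338 peaks, 5 to 50 kb for 654 and 869, and over 50 kb for 567 and 866. Median signal was highest in the middle class, at 1.51 and 1.15, and lowest beyond 50 kb, at 1.06 and 0.847. At the edge of the rule, the 31 and 37 peaks kept within the first 100 bp beyond 1 kb from a protein-coding TSS had median signals of 1.06 and 0.774, and the 23 and 37 left out within the last 100 bp before it had 1.14 and 0.754. Peaks in the last 100 bp of the window around a lncRNA TSS (77 and 106) had 1.17 and 0.931, and those in the first 100 bp outside it (71 and 116) had 1.31 and 0.881.

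Peaks of the libraries with at least 1 base in common were counted as shared. Of the lncRNA start-site peaks, 1319 (89.1%) of replicate 1 and 1305 (63.0%) of replicate 2 were shared, or 76.0% ± 18.5 (SD, n = 2). Over all peaks on these chromosomes the shares were 85.9% and 56.2%. Promoter peaks were shared in 83.7% and 80.9%, and distal peaks in 86.9% and 49.2%. When the same number of strongest peaks was taken from each library, 79.9% and 80.8% of lncRNA start-site peaks were shared, and lists of equal length make such shares near equal. Of the overlapping partners, 1305 of 1319 in replicate 2 and 1287 of 1305 in replicate 1 were themselves lncRNA start-site peaks, and the others lay just outside the window or inside that of a protein-coding TSS.

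Shared start-site peaks had about 2 times the signal of those found in 1 library. Median signal was 1.45 against 0.752 in replicate 1 and 1.44 against 0.574 in replicate 2, with ratios of 1.93 and 2.51 (2.22 ± 0.411, SD, n = 2). Shared peaks were also wider, with medians of 180 and 220 bp against 137 and 174 bp. These gaps were not particular to lncRNA start sites. Over all peaks of replicate 1 the median signal was 1.42 against 0.772 and the width 180 against 140 bp. The signal there was 2.47 against 0.812 at promoters and 1.22 against 0.746 at distal peaks. A footprint was present in 91.7% and 93.3% of shared peaks and in 71.0% and 70.6% of the others. In all, 89.4% and 84.9% of start-site peaks held one (87.1% ± 3.21, SD, n = 2). Over all peaks the share was about the same, at 89.4% and 86.6%. Among peaks found in 1 library it was 49.8% and 44.9% at promoters, 80.5% and 80.7% at distal peaks and 69.4% and 77.2% over all.

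The shared share followed signal closely. Among lncRNA start-site peaks in the weakest decile of all peaks by signal, 68.9% of 122 were shared in replicate 1 and 8.52% of 176 in replicate 2. In the strongest decile, 99.2% of 128 and 99.5% of 213 were shared. All peaks of the same deciles gave 62.4% and 8.62% at the weak end and 99.7% in both libraries at the strong end. The lncRNA share was above that of all peaks in 9 of 10 deciles of replicate 1 and 8 of 10 of replicate 2, by differences of -0.459 to 7.06 and -0.192 to 7.76 percentage points. In the fifth decile 77.2% and 71.6% of promoter peaks and 86.2% and 43.5% of distal peaks were shared, against 91.0% and 55.0% of lncRNA start-site peaks. In some deciles of replicate 1 distal peaks were shared more often, as in the third, with 82.5% against 80.0%. In replicate 2 promoter peaks were shared more often than lncRNA start-site peaks in every decile. The share of all peaks thus depends on the mix of these sets.

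**Figure D3:**
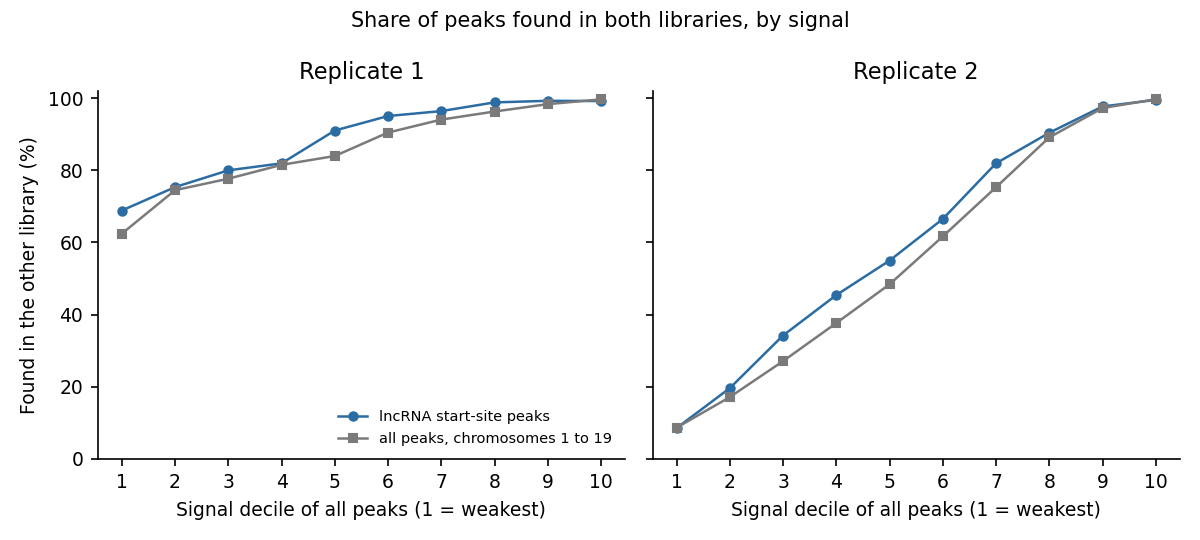
Percent of peaks found in the other library (y axis) by decile of signal over all peaks of the library (x axis, 1 is weakest), for replicate 1 (left) and replicate 2 (right). Blue circles are lncRNA start-site peaks and grey squares all peaks on chromosomes 1 to 19. Both lines rise to above 99% in the strongest decile, and in replicate 2 the weakest decile stands at 8.52% and 8.62%.

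The peaks found in 1 library differed in base composition between the libraries. In replicate 1 the 162 such peaks had a median GC of 57.0%, against 55.4% for shared peaks, and 27.8% of them were CpG-rich, against 28.0%. In replicate 2 the 768 such peaks had a median GC of 49.7%, against 54.3% for shared peaks, and 8.46% were CpG-rich, against 26.5%. All peaks split alike by GC, with a median of 56.7% against 54.3% in replicate 1 and 47.1% against 53.3% in replicate 2. Over all peaks 32.2% against 28.5% were CpG-rich in replicate 1, a gap that start-site peaks did not have, and 4.98% against 26.7% in replicate 2. With rising GC the shared share fell in replicate 1, from 95.3% of 86 start-site peaks under 45% GC to 80.5% of 82 at 70% GC and above. In replicate 2 it rose over the same bins, from 38.6% of 267 to 88.1% of 67.

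Many start-site peaks of 1 library had some trace in the other. Of those found in replicate 1 alone, 48.1% overlapped a peak in the longer, less strict list of replicate 2, and 80.9% held a base that replicate 2 lists at a false discovery rate of at most 0.05. Of those found in replicate 2 alone, 48.2% overlapped a peak in the longer list of replicate 1 and 54.2% held a listed base. At a false discovery rate of at most 0.001 the shares were 31.5% and 7.68%. All peaks found in 1 library gave near values, with 50.3% and 41.4% in the longer list, 76.8% and 48.8% with a listed base and 28.4% and 6.38% at the stricter rate. These peaks were not called in the other library's shorter list, and its chromatin there was not shown to be closed.

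Joined across the libraries, the start-site peaks made up 2218 loci. Both libraries had a peak at 1288 of them (58.1%), replicate 1 alone at 162 and replicate 2 alone at 768. At 1234 loci each library had 1 peak, and across these the log2 signals had a Pearson correlation of 0.817 and a Spearman correlation of 0.795. These are correlations across loci, which are not independent replicates. The median log2 difference, replicate 1 minus replicate 2, was 0.084 with an SD of 0.617, and 1091 of the loci (88.4%) were within 2-fold. That difference moved with GC: its median was -0.24 at the 204 loci of 45 to 50% GC and 0.56 at the 59 loci of 70% GC and above.

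**Figure D4:**
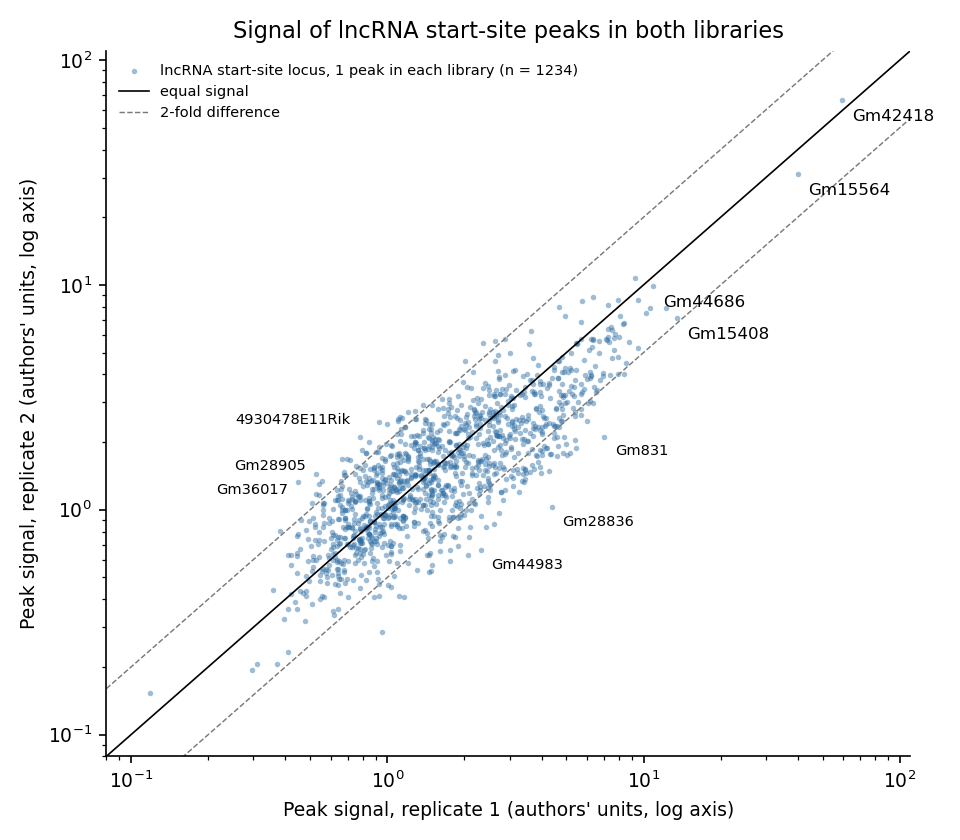
Peak signal of replicate 1 (x axis) and replicate 2 (y axis), both in the authors' units on log axes, for the 1234 loci with 1 lncRNA start-site peak in each library. The solid line marks equal signal and the dashed lines a 2-fold difference, and the named points are the 4 strongest loci and the 3 largest differences in each direction. Most points (88.4%) lie between the dashed lines, and Gm42418 and Gm15564 stand far above the rest.

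The strongest loci were not typical of the class. Gm42418, a lincRNA gene on chromosome 17 (ENSMUSG00000098178), had a signal of 59.5 in replicate 1 and 66.2 in replicate 2 (62.8 ± 4.72, SD, n = 2), the highest of all peaks on these chromosomes in both libraries. Its peak overlaps the ribosomal RNA gene CT010467.1 of the same annotation, and its 120 bases in replicate 1 have an identical copy at chr6:3200870-3200989. Gm15564, antisense and inside the gene body of Kpna1, a nuclear import receptor (importin alpha), had 40.1 and 31.0 (35.5 ± 6.42, SD, n = 2). It matches chr9:123462024-123462182 at 98.7% over 159 bases, and there a peak of replicate 1 had a signal of 46.6. Reads of near-identical copies are hard to place, so both signals are uncertain. Over all loci, 34 had a copy at 95% identity or more over at least 90% of the peak, 21 of them shared.

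The other loci among the 10 strongest had signals between 7.11 and 13.5, no copy, and, apart from 2, a peak across the annotated start. Gm44686, antisense within Chd2, a chromatin remodeller gene, had 10.9 and 9.86. Gm15408, a lincRNA, had 13.5 and 7.11, and Tmem250-ps, typed as a lincRNA although its name marks a pseudogene, had 12.3 and 7.91. 1700113A16Rik, antisense and 35449 bp from the nearest start of Mef2d, a neuronal transcription factor gene, had 9.26 and 10.7 with its peak 315 bp from its start. Gm12762, a lincRNA, had 10.6 and 7.91, and Gm17552, antisense inside the gene body of Carns1, had 9.55 and 8.53. The lincRNAs 1700096K18Rik, whose peak lay 153 bp from its start, and 6720427I07Rik had 10.2 and 7.53 and 7.96 and 8.53. These 8 loci had a GC content of 57.1% to 70.8%, above the median of the class, and each held at least 3 footprints in each library. Replicate 1 was the higher library at 6 of the 8.

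The 5 strongest peaks found in replicate 1 alone were GC-rich and often stood next to a peak of replicate 2 without touching it. At Gm26901 (signal 5.54, GC 65.5%) the nearest peak of replicate 2 began 21 bp away, at 2410080I02Rik (2.08, 67.9%) 41 bp away, and at Gm46404 (2.22, 62.6%) it abutted the peak. At 4932412D23Rik (3.39, 72.5%) and AC026385.1 (2.34, 60.6%) it was 221 and 301 bp away. Inside each of these 5 peaks replicate 2 still listed bases. Their lowest false discovery rates were 4.6e-96 at Gm26901, 8.8e-70 at 4932412D23Rik and 4.2e-13 at 2410080I02Rik. At Gm46404 and AC026385.1 they were 3.7e-08 and 0.0015. These sites were therefore not shown to be closed in replicate 2. The 5 strongest found in replicate 2 alone were A930028N01Rik (3.38), Gm44199 (2.43), C030014I23Rik (2.21), Gm16048 (2.19) and Gm47272 (2.14). Their GC content was 39.5% to 50%, and each overlapped a peak in the longer list of replicate 1, with signals there of 1.48, 0.746, 1.44, 0.706 and 0.686. The lowest false discovery rates of replicate 1 inside them were 0.00090 to 0.016.

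The largest differences at loci with 1 peak in each library split the same way by GC. Gm28836 had 4.39 in replicate 1 and 1.03 in replicate 2 (log2 difference 2.09), Gm44983 had 2.32 and 0.661 (1.81) and Gm831 had 7.03 and 2.12 (1.73). In the other direction Gm36017 had 0.449 and 1.33 (-1.57), Gm28905 had 0.528 and 1.44 (-1.45) and 4930478E11Rik had 0.785 and 2.12 (-1.43). GC content was 54.8% to 63.1% at the former and 44.2% to 49.3% at the latter. With 1 value a library these differences have no error of their own.

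The loci with most footprints had several peaks in each library, and footprints were summed over them. Peaks of 1 library can overlap, and a footprint inside overlapping peaks was counted for each. The sums may therefore hold repeats, which were not removed. Gm12951 held 8 footprints in 3 peaks of replicate 1 and 27 in 2 peaks of replicate 2. The other 4 loci had 2 peaks in each library. AC141471.6 held 12 and 15, Gm15567 7 and 16, Gm26577, whose nearest protein-coding start is that of Myb, 5 and 18, and Gm26592 3 and 19. By these sums replicate 2 had more footprints at each of these 5 loci. At each the strongest of its peaks was wider than the strongest of replicate 1, with 1100 against 280 bp at Gm12951.

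Genes of 7 lists were looked up by symbol, and one annotated under another symbol counted as unmatched. They hold 123 entries, of which 34 have another gene type in the annotation (Gas5 and other processed transcripts among them), 21 have no matching symbol and 8 have no start over 1 kb from a protein-coding one. The 60 left are 57 genes, since Meg3, Mir9-3hg and Mir155hg each stand in 2 lists, and 28 of the 57 had a start-site peak in replicate 1 and 30 in replicate 2. The background is the 16.1% and 21.5% of all eligible genes, and well-studied genes were not drawn evenly from these. Over the 1064 genes with a peak in both libraries, the mean signal of a gene's strongest peak had a median of 1.59. Among list members with a peak in both, it was 2.71 for 6 widely expressed lncRNAs and 3.33 for 3 small nucleolar RNA hosts. It was 2.00 for 5 members of the list of microRNA hosts, 1.72 for 8 neural and 1.95 for 3 other-tissue lncRNAs. The 3.35 for the imprinted rests on 2 genes, Meg3 at 1.77 and Kcnq1ot1 at 4.93.

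Widely expressed lncRNAs mostly had an open start: 6 of the 8 eligible genes did in both libraries. Malat1, a nuclear speckle RNA, had its strongest start-site peak at 7.22 in replicate 1 and 5.69 in replicate 2, and Neat1, the scaffold of paraspeckles, at 3.92 and 2.10. These Malat1 peaks lay 849 bp from its nearest start, and the peaks over a Malat1 start had 6.43 and 3.53. Epb41l4aos had 4.08 and 1.92, and Lncpint 2.67 and 2.15. 2900097C17Rik, also known as Norad, which binds Pumilio proteins, had 2.08 and 1.19, and Pvt1, the neighbour of Myc, 2.10 and 0.834. Replicate 1 was higher at all 6. Tug1 and Gm26917 had none, but at Tug1 the rule could not apply to the 2 and 1 peaks that were there, since they lay within 1 kb of a protein-coding start. All 3 eligible small nucleolar RNA host genes, which carry such RNAs in their introns, had a peak in both libraries, Snhg12 at 4.31 and 3.15, Snhg6 at 4.06 and 2.60 and Snhg20 at 2.88 and 1.98.

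Of 4 host genes of the neuronal miR-124 and of miR-9, 3 had a start-site peak in both libraries and 1 in replicate 2. Mir124a-1hg, a host of miR-124, had 2.52 and 2.81, Mir124-2hg 2.05 and 1.95, and C130071C03Rik, the host of a miR-9 gene, 2.65 and 2.62. The libraries differed by little in signal at these 3 genes. Each of the 3 had more start-site peaks in replicate 2, which also had more over all genes (2073 against 1481). At C130071C03Rik 2 of the replicate 2 peaks begin at the same base and overlap. Mir9-3hg had 1.75 in replicate 2 and no peak in replicate 1. Mir17hg, which carries a microRNA cluster tied to proliferation, had 1.91 and 1.02. Mir155hg and Mir142hg, which are known from blood cells, had none in either library. The list also holds Mirt1 (0.957 and 1.45) and Mirt2 (none), which are myocardial infarction associated transcripts and not microRNA hosts. Without them 4 of 7 eligible hosts had a peak in replicate 1 and 5 in replicate 2, and the 4 with one in both had a median mean signal of 2.32.

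Among 7 eligible imprinted lncRNAs, which are transcribed from a single parental allele, 2 were open in both libraries. Kcnq1ot1, transcribed from the paternal allele, had 3.65 in replicate 1 and 6.21 in replicate 2 at a peak over or within 12 bp of its start, and Meg3, from the maternal allele, had 1.55 and 1.98. Airn (0.827) and A230006K03Rik (0.754) had a peak in replicate 2 alone and Nespas (0.719) in replicate 1 alone, all weaker than the median start-site peak of their library. H19 and Mirg had none. Which parental allele was open was not analysed here.

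Of 15 eligible members of the list of neural and cortical lncRNAs, 8 had a start-site peak in replicate 1 and 9 in replicate 2. Genes were placed in this list by name, and whether their peaks are particular to neural tissue was not tested. In this list 1700020I14Rik was the strongest, at 8.29 and 6.71, followed by Gm10419 at 4.79 and 4.10 and Gm20754, near Slitrk3, at 3.74 and 3.34. Miat had 1.77 and 1.57, and Pantr1, which neighbours the cortical factor gene Pou3f3, had 1.29 and 1.27. The Pantr1 values are of different peaks, and the replicate 2 peak that overlaps that of replicate 1 had 1.11. C130073E24Rik had 0.699 and 1.10, and Rmst 0.548 and 0.480. None was found at Dlx6os1 and Dlx1as, which lie by factor genes of inhibitory neurons, at Dlx4os, Nkx2-2os and Otx2os1, or at Gm2694, where the 2 peaks of each library lay within 1 kb of a protein-coding start. The other 2 genes with a peak in replicate 2, Meg3 and Mir9-3hg, also stand in the lists above.

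Of 8 eligible genes in Hox clusters, whose factors pattern the trunk and not the cortex, 1 had a start-site peak, a share near that of all eligible lncRNA genes (16.1% and 21.5%). It was Hoxd3os1, at 2.87 and 1.22 in a peak over its start. Hotair, Hottip, Hotairm1, Hoxb3os, Hoxb5os, Hoxaas3 and Halr1 had none in either library. Of 10 eligible lncRNAs known from other tissues or from development, 3 had a peak in both libraries. These were Bvht (2.33 and 3.48) and Carmn (2.16 and 1.73), both known from heart and smooth muscle and both on chromosome 18, and Lockd (0.930 and 0.761). The Bvht values are of different peaks, 88 and 988 bp from its start. The replicate 2 peak that overlaps that of replicate 1 had 3.10. The Carmn peaks lay 938 and 924 bp from its start, near the edge of the window. The 7 others, such as Dnm3os, Pax6os1 and the stem-cell transcripts Lncenc1 and Platr3, had none.

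**Figure D5:**
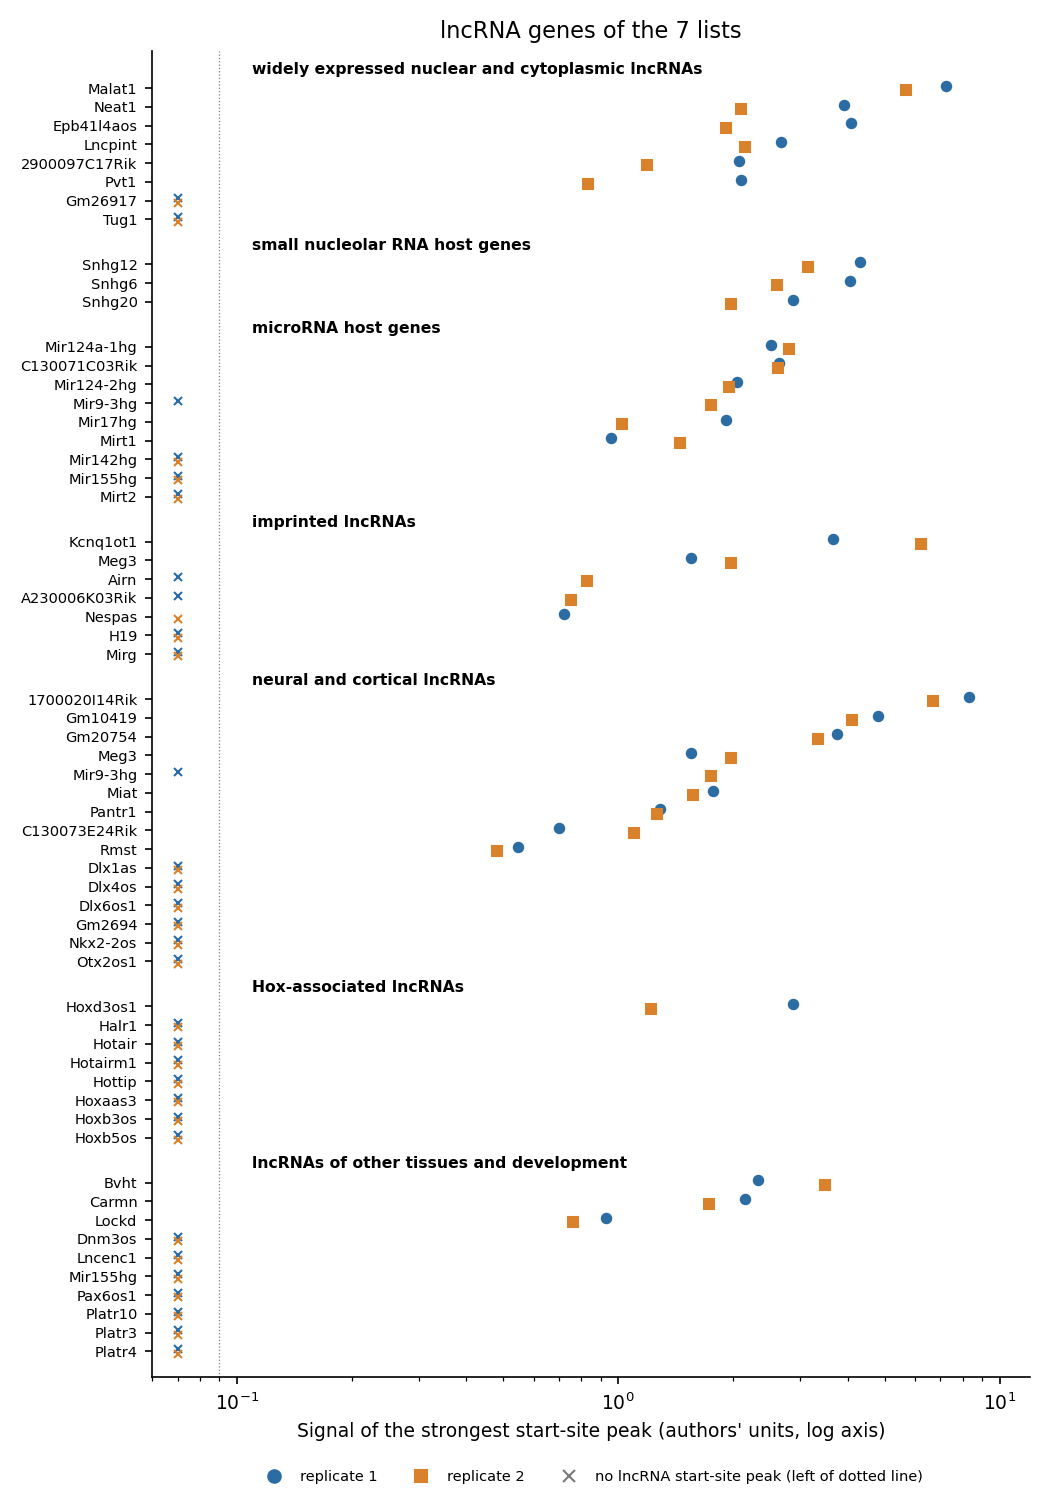
Signal of the strongest start-site peak (x axis, authors' units, log axis) for each eligible lncRNA gene of the 7 lists (y axis), with replicate 1 as blue circles and replicate 2 as orange squares. A cross left of the dotted line marks a gene without a start-site peak in that library, and genes in several lists appear in each. The Hox-associated genes are crosses except Hoxd3os1 (2.87 and 1.22), and replicate 1 lies right of replicate 2 at all 6 widely expressed genes with peaks.

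The base sequence of start-site peaks was searched on both strands for 12 motifs, and the shares are set beside those of other peaks, with median widths of 180 and 220 bp at lncRNA start sites, 213 and 240 bp at promoters and 178 and 200 bp at distal peaks. A match is a stretch of letters and not a bound factor. The core of CTCF, a factor that marks loop anchors, was found in 7.83% of lncRNA start-site peaks in replicate 1 and 5.35% in replicate 2, against 8.48% and 5.43% of all peaks. Among shared start-site peaks it stood in 8.34% of 1319 and 8.35% of 1305. Among those found in 1 library it stood in 6 of 162 (3.70%) and in 2 of 768 (0.260%). Per kb of peak this was 0.423 and 0.333 in shared peaks and 0.252 and 0.0138 in the others. Peaks found in 1 library were also weaker and narrower. For no motif was this split made over all peaks, so whether it is particular to lncRNA start sites was not tested. Mir17hg and Snhg7os, printed above, are shared peaks with the core.

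Letters that hold a CG were found at lncRNA start sites at shares between those of promoters and distal peaks. The SP/KLF box GGGCGGG was found in 12.7% and 10.7% of lncRNA start-site peaks, against 37.2% and 33.8% of promoter peaks and 4.56% and 3.25% of distal peaks. The CRE palindrome TGACGTCA, the site of CREB-family factors, was found in 2.03% and 1.54%, against 2.52% and 2.50% at promoters and 0.519% and 0.435% at distal peaks, and it stood in 29 of the 1319 shared start-site peaks of replicate 1 and 1 of the 162 others, and in 30 of the 1305 and 2 of the 768 of replicate 2. Meg3 and Gm44686 hold it. The ETS letters CCGGAAGT were found in 1.35% and 1.30%, against 4.87% and 4.66% at promoters and 0.321% and 0.265% at distal peaks. The EGR letters GCGTGGGC were found in 2.09% and 2.12%, against 2.77% and 2.64% and 1.09% and 0.944%. The NRF1 palindrome GCGCATGCGC was found in 0.405% and 0.193%, against 1.48% and 1.31% and 0.154% and 0.0891%.

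The letters without a CG followed no single order. The YY1 letters AAGATGGC were rarest at lncRNA start sites, in 0.810% and 0.820%, against 3.28% and 3.21% at promoters and 1.43% and 1.30% at distal peaks. The AP-1 site TGANTCA was found in 9.39% and 12.7% of lncRNA start-site peaks, against 3.66% and 5.25% at promoters and 12.4% and 18.3% at distal peaks. The E-box CAGATG, which proneural factors bind, was found in 15.7% and 21.4%, against 8.59% and 11.3% and 22.3% and 25.9%. In replicate 2 AP-1 stood in 13.4% of peaks found in 1 library and 12.3% of shared ones, and the E-box in 20.8% and 21.7%. In replicate 1 both were rarer in peaks found in 1 library, with 6.17% against 9.78% for AP-1 and 9.88% against 16.5% for the E-box. The RFX letters GTTGCCATG were found in 28 peaks (1.89%) and 46 peaks (2.22%), against 0.685% and 0.736% at promoters and 1.01% and 1.25% at distal peaks. CCAAT was found in 21.1% and 24.7%, against 25.5% and 29.0% and 18.1% and 21.5%. The NFI palindrome, the letters TTGGC and GCC with 5 bases between, was found in 2.03% and 1.59%, against 1.75% and 1.67% and 2.52% and 1.79%. CCAAT reads ATTGG on the other strand, so its matches can overlap those of NFI, and SP/KLF matches can overlap those of EGR.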

How the data were processed

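DNase-seq peak lists, footprints and per-base values of 2 libraries were used. The authors deposited for each library peaks with a signal, 1 value per peak whose scaling is not stated, footprints (their constant score was left unused), and bases with q-values (false discovery rates) of at most 0.05. Per the file headers and notes, all were made on mm10 from each library's own alignments. The choice of aligner and peak caller, with versions and cut-offs, is not given in the sources used here. Read totals are likewise absent from the files used, so depth is unknown and no counting interval is given.

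The shorter peak list was used, with starts, gene types and symbols from the GENCODE M21 basic annotation and sequence from GRCm38.p6. Distances ran from the nearest base of a peak. CpG observed over expected is the CpG count times length over the product of C and G counts. Copies were sought with blastn 2.17.0 (megablast). Values were computed in python 3.11.15 with pandas 2.3.3, numpy 2.4.6, scipy 1.17.1 and pysam 0.24.0, and overlap code was checked against direct counting on simulated intervals. With 1 group no test was run. The number of libraries limits every SD.

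Named were the 10 strongest shared loci, the 5 strongest of each single library, the 5 with most footprints, the 3 largest differences each way, genes of the lists and genes with most peaks. The members, gene lists, motifs and marker genes were chosen with earlier results of these data known.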

Additional observations from a re-analysis of the deposited data

How the results depend on the processing

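Each of the 7 summary values (number of start-site peaks, share found in both libraries, signal ratio of shared over single-library peaks, share of eligible genes with a peak, share with a footprint, median CpG ratio and median log2 difference) was recomputed under other windows, overlaps, peak lists and annotation choices and under 2 settings chosen after the data were seen, the comprehensive annotation and leaving out peaks with copies. Of 66 such values from both libraries, 58 were counted as unmoved, that is, within the SD of the libraries. For the count the limit was 1.5 times, and for the log2 difference the interval of its median across loci. With 2 unlike libraries the SD is wide, at 18.5 points for the share found in both. That share counts as unmoved at the same number of strongest peaks, although the libraries went from 89.1% and 63.0% to 79.9% and 80.8%. Only the log2 difference could change direction, and it did not. The longer peak list gave 2729.5 peaks per library, 25.9% of eligible genes, footprints in 79.3%, a CpG ratio of 0.366 and a log2 difference of 0.030. The same number of strongest peaks gave footprints in 91.7% and a difference of 0.043. The interval of that difference was -0.0024 to 0.078 across loci, which are not independent replicates. A 500 bp window gave a CpG ratio of 0.458. The cause of these shifts was not tested. With 1 library left out, which by construction keeps a value within the SD of the 2, the values ranged from 1481 to 2073 peaks, 63.0% to 89.1% shared, ratios of 1.93 to 2.51, 16.1% to 21.5% of genes, 84.9% to 89.4% with a footprint and CpG ratios of 0.380 to 0.435. No paired analysis was possible because both libraries belong to 1 group.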
